A study of Mus musculus with 32 samples.

Results

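Amino acid supply and the stress-responsive transcription factor Atf4 were followed in mouse lung organoids through 33 genes of the count table. The set was a list of gene names, chosen with earlier results of these data known. It comprised 7 regulators of the Atf4 response (Atf4, Atf3, Atf5, Ddit3, Trib3, Chac1 and Sesn2), 19 enzymes of amino acid synthesis, interconversion and one-carbon metabolism, and 7 amino acid transporters. All 33 genes had a row among the 11818 genes of the table, and all 33 passed the filter on low counts in the fits reported. With at least 10 counts required in every library, Bcat1 dropped out of the Epcam+ fit, Cth out of the CCL206 fit, and both out of the fit of all libraries. Organoids were set up from primary CD45-/CD31-/Epcam+ lung cells of 4 naive C57BL/6J mice aged 8 to 14 weeks, mixed with CCL206, a single mouse lung fibroblast line that had been growth-arrested with mitomycin C, at 300000 cells of each in Matrigel. The cultures received vehicle, extracellular vesicles (EVs, 1000000000 particles/mL), soluble factors (SFs, 30 µg/mL) or recombinant human osteoglycin (OGN, 10 µg/mL, a small proteoglycan of the extracellular matrix) for 72 h, and were then split with Epcam microbeads into an Epcam+ epithelial and a CCL206 fibroblast fraction. EVs and SFs both came from MRC5, a human lung fibroblast line. This gave 8 groups of 4 libraries, 1 per mouse and group, in a medium that in all groups contained serum, L-glutamine and insulin-transferrin-selenium.

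When amino acids run short, or when proteins misfold in the endoplasmic reticulum, phosphorylation of the initiation factor eIF2alpha slows general translation while favouring translation of Atf4 mRNA. ATF4 protein then pairs with other basic leucine zipper proteins at composite DNA elements and raises transcription of genes for amino acid synthesis, amino acid uptake and tRNA charging, together with feedback regulators such as Trib3 and Ddit3, which encodes CHOP. Because ATF4 is controlled largely through its translation, the Atf4 mRNA level given here is not a measure of ATF4 protein or activity.

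Promoter sequences are shown because many targets of ATF4 carry a short element near their start. The motif TGATGNAA, known as the C/EBP-ATF response element, was searched on both strands in RefSeq promoters of build GRCm38.p6, from 250 bases before to 50 bases after each gene start, as the only motif searched. Of the 33 genes, 28 had a promoter entry (Cth, Slc1a5, Asl, Slc7a5 and Slc38a1 had none), and 7 of these (25%) held the motif, as did 241 of the 9166 genes of the whole table with an entry (2.63%). The set was chosen for the Atf4 response and amino acid metabolism, so the difference between these shares is not a finding of these data. The matches lay in the promoters of 3 regulators (Atf3, Chac1 and Trib3), 3 of the 17 enzymes with an entry (Asns, Got1 and Pycr1) and 1 of the 4 transporters with an entry (Slc1a4). The stretches of Chac1 and Pycr1, the 2 genes that were lower with OGN in the fibroblasts, of the classical target Asns and of Slc1a4, the only transporter with a match, are printed on the strand of the gene, with the motif, or its reverse complement, in capitals.
Chac1, chr2:119351003-119351102, plus strand: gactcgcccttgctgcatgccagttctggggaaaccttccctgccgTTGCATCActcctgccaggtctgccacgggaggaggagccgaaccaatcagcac
Pycr1, chr11:120643798-120643897, minus strand: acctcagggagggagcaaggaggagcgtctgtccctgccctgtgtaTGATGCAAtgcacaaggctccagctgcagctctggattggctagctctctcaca
Asns, chr6:7693210-7693278, minus strand: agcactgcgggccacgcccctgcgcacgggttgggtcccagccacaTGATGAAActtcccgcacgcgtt
Slc1a4, chr11:20332699-20332728, minus strand: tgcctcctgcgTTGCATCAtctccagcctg

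Chac1, Atf3, Got1, Trib3 and Slc1a4 carried the reverse complement, Pycr1 and Asns the forward form. The first base of the match lay 193 bases before the gene start in Chac1 (position -193), at -103 in Pycr1, at -23 in Asns and at -4 in Slc1a4. Mthfd1l, Glul and Bcat1, which were higher with OGN in the fibroblasts, had no match in this window. Nor had Ddit3, Mthfd2, Aldh18a1 and Sesn2, which were called lower there once the EV-treated libraries were left out. Atf3, Trib3, Asns, Got1 and Slc1a4 had a match but were not called with OGN in the fibroblasts in the fit reported. A match is a description of the letters and was not tested as a binding site.

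Libraries held between 1805914 and 17675454 counts (median 5901652). Replicates of a group differed by more than sampling noise in all 48 pairs. The 2 EV-treated CCL206 libraries of mice 2 and 4 stood apart from the other CCL206 libraries, since their deviations from the mean of the CCL206 vehicle libraries fell with transcript length. Spearman coefficients across genes were -0.53 and -0.57, against -0.25 and -0.32 in the EV-treated libraries of mice 1 and 3. They lay between -0.22 and 0.18 in the other 12, which include the vehicle libraries themselves. Counts of genes called in the fibroblasts are therefore given with and without EV-treated libraries. Levels are in CPM, read counts scaled to library size with factors set over all 32 libraries, and a gene was called where edgeR's quasi-likelihood test gave an adjusted p under 0.05 over all genes tested. Each population was fitted with its 16 libraries and a term for the mouse. All comparisons of a treatment with vehicle in a population share the same 4 vehicle libraries.

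To rank the genes against each other, vehicle levels were divided by median transcript length. In the Epcam+ cells, Psat1, which transaminates phosphohydroxypyruvate on the way to serine, had the highest level at 128 ± 16.2 CPM per kb (SD, n = 4), next to Atf4 with 123 ± 5.24, a pair whose ranges overlapped. Phgdh, the first enzyme of that pathway, followed at 99.1 ± 4.99 CPM per kb. The lowest was Bcat1, the cytosolic branched-chain aminotransferase, at 0.632 ± 0.201 CPM per kb. In the CCL206 fibroblasts Atf4 led with 182 ± 38.3 CPM per kb, and every one of its libraries lay above the highest library of the next gene, Slc38a2, a carrier of small neutral amino acids with 103 ± 13.1. The lowest genes there were Cth, which makes cysteine from cystathionine, at 1.73 ± 0.409 and Ass1, argininosuccinate synthase, at 3.13 ± 0.895 CPM per kb.

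More of these genes differed between the 2 populations than with any treatment. In vehicle, 5 of 7 transporters and 10 of 19 enzymes were higher in the Epcam+ cells, whereas all regulators but Atf3 were higher in the CCL206 fibroblasts. In the comparison of the vehicle groups, 16 of the 33 were called higher in Epcam+ cells and 14 higher in the fibroblasts, beside 35.1% and 34.3% of all genes tested, and 30 in all, beside 69.4%. Without the EV-treated libraries these counts were again 16 and 14, with 73.6% of all genes called. By role, 1 regulator was higher and 6 were lower, 10 enzymes were higher and 6 lower, and 5 transporters were higher and 2 lower, with or without the EV-treated libraries. The median log2 difference, Epcam+ minus CCL206, was -0.83 for the regulators, 0.24 for the enzymes and 1.39 for the transporters, beside 0.02 for all genes.

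Among the regulators, Ddit3 was at 13.3 ± 3.92 CPM (SD, n = 4) in Epcam+ cells and at 53.0 ± 16.7 CPM in the fibroblasts, 3.88-fold higher in the latter (log2 difference -1.96 ± 0.22 SE, adjusted p = 6.91e-09). Chac1, whose product breaks down glutathione, was 3.22-fold higher in the fibroblasts (adjusted p = 1.51e-06). Atf4 itself was at 202, 213, 219.6 and 222 CPM in the vehicle-treated Epcam+ cells of mice 1 to 4 and at 347, 396, 265 and 258 CPM in the fibroblasts. All 4 fibroblast libraries of Atf4 thus lay above all 4 epithelial ones, with a 1.45-fold difference (log2 difference -0.53 ± 0.11 SE, adjusted p = 8.49e-05). Atf5 (1.81-fold), Sesn2, a leucine-sensing inhibitor of growth signalling (1.77-fold), and the pseudokinase gene Trib3 (1.60-fold) were also higher in the fibroblasts, the call of Trib3 being lost without mouse 2 (adjusted p = 0.0552). Atf3 was 1.65-fold higher in the Epcam+ cells (adjusted p = 0.00348), although its libraries spread from 30.7 to 96.5 CPM there and from 14.8 to 78.0 CPM in the fibroblasts, so the groups overlapped, and the call was lost without mouse 4 or without the mouse term.

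The enzymes split in both directions. Higher in the Epcam+ cells were Cth with 15.7 ± 2.13 against 3.04 ± 0.720 CPM (5.22-fold, adjusted p = 5.83e-09) and the cytosolic serine hydroxymethyltransferase Shmt1 with 62.9 ± 2.07 against 15.5 ± 2.43 CPM (4.12-fold, adjusted p = 1.54e-14). The same direction was found for Ass1 (3.92-fold), Psat1 (2.51-fold), Shmt2 (1.99-fold), Phgdh (1.53-fold), Mthfd2 (1.51-fold), the mitochondrial aminotransferases Bcat2 (1.35-fold) and Got2 (1.18-fold) and for Glul. Glul, glutamine synthetase, stood at 122, 121, 128 and 116 CPM in the Epcam+ cells and at 44.9, 44.6, 44.6 and 44.3 CPM in the fibroblasts, 2.75-fold apart with no overlap. Bcat1 ran the other way, with 3.66, 4.18, 4.85 and 7.25 CPM in the Epcam+ cells and 36.6, 37.6, 29.0 and 26.4 CPM in the fibroblasts, a 6.99-fold difference (log2 difference -2.80 ± 0.23 SE, adjusted p = 2.79e-11). Pycr1, which catalyses the last step of proline synthesis, was 2.43-fold higher in the fibroblasts, and Got1, Asl, Gpt2 and Mthfd1l were between 1.23-fold and 1.38-fold higher there. Of these calls, those of Got2 (mouse 1 or 2), Gpt2 (mouse 2), Asl (mouse 3), Bcat2 (mouse 4) and Mthfd1l (mouse 1) were lost when the mouse named was left out, with adjusted p of up to 0.201 for Got2 and 0.0910 for the other 4. The 3 enzymes without a call were Asns (log2 difference -0.18 ± 0.09 SE), Psph (-0.04 ± 0.14) and Aldh18a1 (0.02 ± 0.10).

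Slc7a5, which imports leucine and other large neutral amino acids, was at 138, 153, 139 and 116 CPM in the Epcam+ cells and at 40.4, 42.1, 31.4 and 32.3 CPM in the fibroblasts. The groups did not overlap, and the level was 3.79-fold higher in the Epcam+ cells (log2 difference 1.92 ± 0.09 SE, adjusted p = 4.93e-16). The glutamine and neutral amino acid exchanger Slc1a5 had nearly the same ratio (3.79-fold, log2 difference 1.92 ± 0.10 SE), followed by the glycine transporter Slc6a9 (2.79-fold), the cationic amino acid transporter Slc7a1 (2.63-fold) and Slc38a1 (1.33-fold), whose call was lost without mouse 2 or mouse 3 (adjusted p up to 0.0935). Slc1a4, an exchanger of alanine, serine and cysteine, and Slc38a2 were higher in the fibroblasts by 1.67-fold and 1.34-fold.

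**Figure D1:**
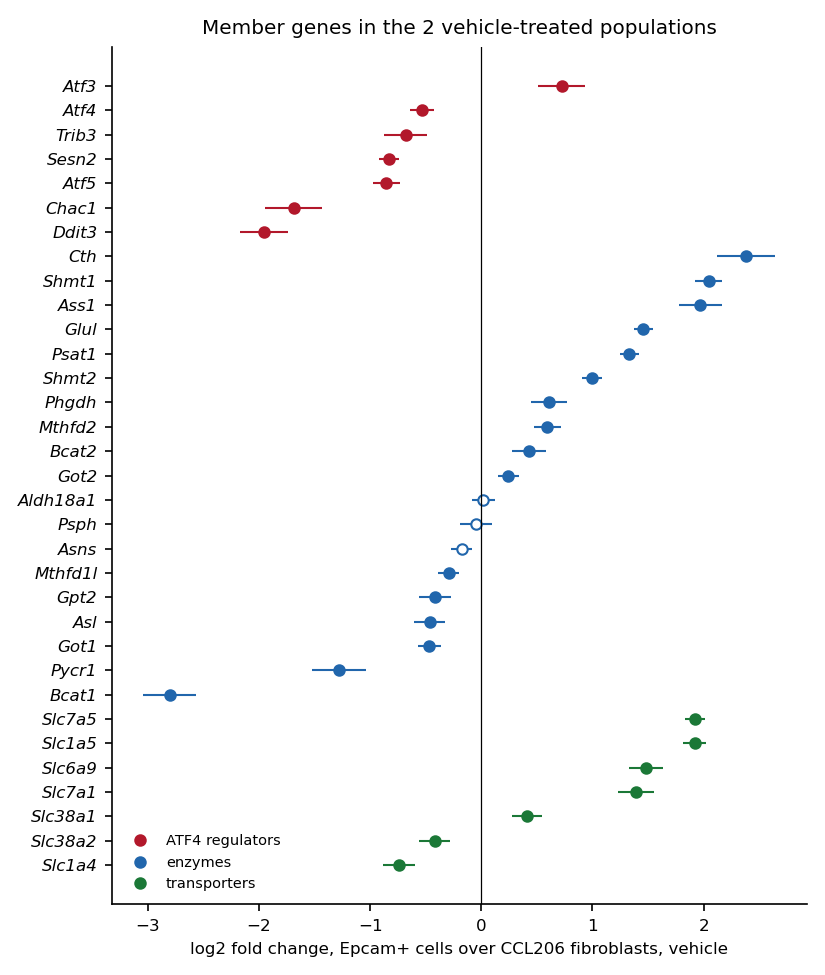
Log2 fold change of the 33 genes between vehicle-treated Epcam+ cells and vehicle-treated CCL206 fibroblasts (x axis, positive values are higher in Epcam+ cells; bars are standard errors of the fit; 4 mice per group), grouped by role. Filled points had an adjusted p under 0.05. Of the regulators Atf3 alone lies to the right of 0, and 5 of 7 transporters do, from 0.41 to 1.92.

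Neither fraction was free of the other. The fibroblast libraries of the vehicle group held all 8 epithelial markers at a summed 208 to 532 CPM, against 5584 to 5888 CPM in the Epcam+ cells, and Epcam itself stood at 11.5 ± 3.45 against 289 ± 26.3 CPM. Conversely, 9 of 10 fibroblast markers were measured in the Epcam+ libraries at a summed 2239 to 3111 CPM, against 11569 to 12907 CPM in the fibroblast libraries. Of these 9, 8 were called lower in the Epcam+ cells, but 1 was called higher there (log2 difference 3.14) and is part of the sum. The 10 markers of alveolar type II cells summed to 9552 to 16000 CPM in the Epcam+ libraries and to 1876 to 4841 CPM in the fibroblast libraries. Of these 10, 9 were called higher in the Epcam+ cells, and Lrrk2 was not called (log2 difference -0.13). Fewer cells of a type and less RNA per cell cannot be told apart in such bulk samples, and the part of the other fraction in the differences between populations was not tested.

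OGN raised Mthfd1l in both populations, the only gene of the 33 called with OGN in both. In the Epcam+ cells, 2 of the 33 genes were called, both enzymes and both higher (1.48% of all genes tested were higher and 2.70% changed in either direction), while no regulator and no transporter was called. Mthfd1l encodes a mitochondrial enzyme that releases formate for one-carbon metabolism. Its level was 62.1, 61.4, 72.6 and 66.7 CPM with vehicle and 101, 91.3, 91.1 and 105 CPM with OGN in mice 1 to 4. All 4 OGN-treated libraries lay above all 4 vehicle-treated ones, and the gene rose 1.47-fold (log2 fold change 0.56 ± 0.09 SE, adjusted p = 0.000567 by edgeR's quasi-likelihood test). Asl, argininosuccinate lyase, which releases arginine, was at 29.5, 28.6, 25.5 and 38.2 CPM with vehicle and at 39.1, 48.9, 35.9 and 59.995 CPM with OGN. It rose in each of the 4 mice and 1.48-fold in all (log2 fold change 0.57 ± 0.13 SE, adjusted p = 0.0120), but the groups overlapped through mouse 4 with vehicle and mouse 3 with OGN, and the call was lost when mouse 1, 2 or 3 was left out and without the mouse term (adjusted p up to 0.0846). Mthfd1l kept its call in all 12 alternatives.

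The other epithelial values stayed below the threshold. Bcat1 had the largest fold change of the set, from 3.66, 4.18, 4.85 and 7.25 CPM to 12.9, 9.22, 8.03 and 6.73 CPM (log2 fold change 0.96 ± 0.32 SE, adjusted p = 0.137), and rested on as few as 13 counts in a library. Atf4 was at 243, 267, 210.1 and 205 CPM with OGN, higher than vehicle in 2 mice and lower in the other 2 (log2 fold change 0.10 ± 0.08 SE, adjusted p = 0.645). Asns, which makes asparagine, reached 98.5, 85.4, 92.0 and 97.7 CPM from 78.6, 76.5, 88.8 and 79.5 CPM, higher in 4 of 4 mice with overlapping groups (0.21 ± 0.09 SE, adjusted p = 0.320). For Slc7a5 the values with OGN were 146, 155, 169.6 and 167 CPM (0.22 ± 0.08 SE, adjusted p = 0.206). Glul, Pycr1 and Chac1, all called in the fibroblasts, had log2 fold changes of 0.14 ± 0.08, -0.47 ± 0.34 and -0.34 ± 0.31 SE in the Epcam+ cells, with adjusted p of 0.501 or more. With OGN, Glul stood at 124, 137, 139.6 and 136 CPM in the Epcam+ cells. Pycr1 went from 6.14, 7.72, 3.03 and 4.74 to 4.05, 2.03, 4.89 and 4.04 CPM, and Chac1 from 7.33, 8.04, 2.83 and 4.18 to 3.52, 5.16, 4.75 and 3.77 CPM, in both cases lower in 3 of 4 mice. In all, 22 of the 33 log2 fold changes were positive, with medians of -0.14 for regulators, 0.14 for enzymes and 0.13 for transporters, beside -0.0031 for all genes. Without overlap lay 3 of the 33 above and none below vehicle, beside 3.20% and 2.86% of all genes tested.

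**Figure D2:**
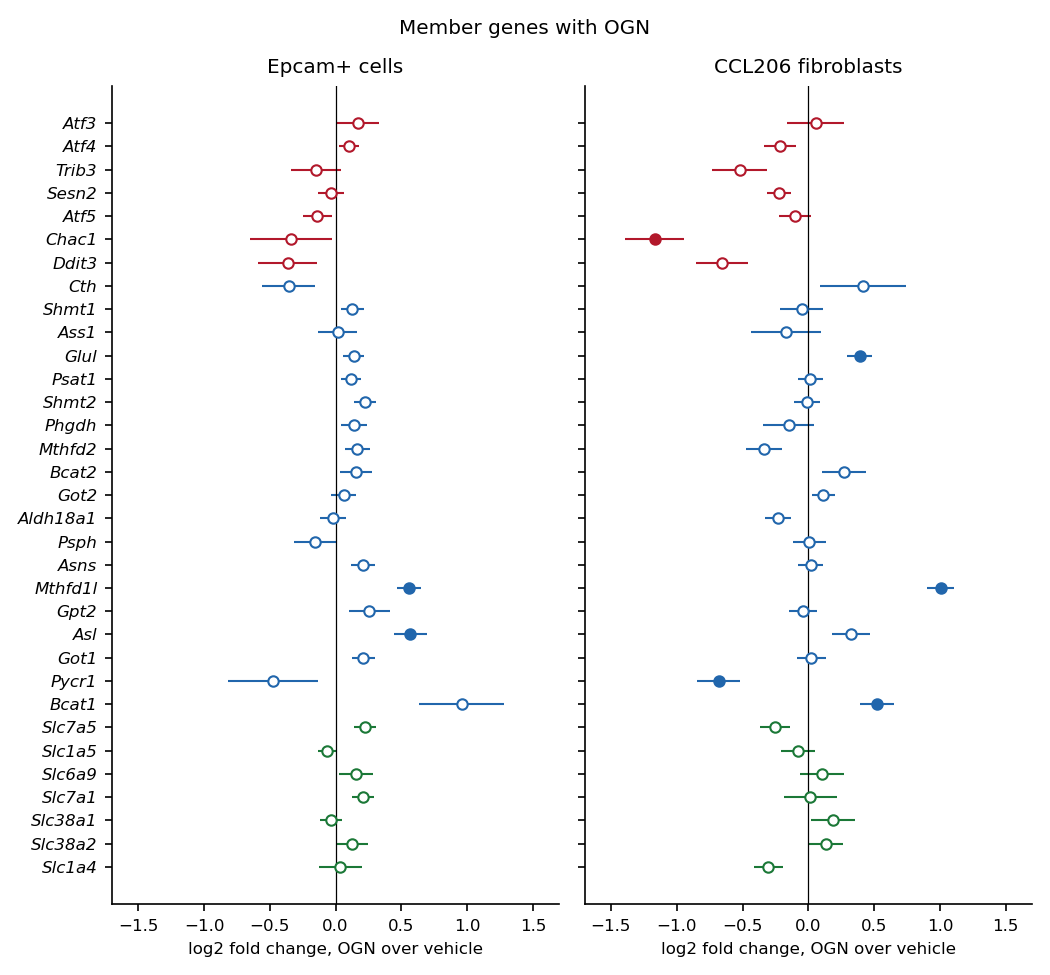
Log2 fold change of the 33 genes with OGN over vehicle in Epcam+ cells and in CCL206 fibroblasts (x axes; bars are standard errors of the fit, 4 mice per group), in 1 row per gene. Filled points had an adjusted p under 0.05, which held for 2 genes on the left and 5 on the right, Mthfd1l being filled in both panels.

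In the fibroblasts OGN was accompanied by changes in both directions. Of the 33 genes 3 enzymes rose (Mthfd1l, Glul and Bcat1), and 1 enzyme and 1 regulator fell (Pycr1 and Chac1), 5 in all. Of all genes tested, 2.70% rose, 1.86% fell and 4.56% changed in either direction. No transporter was called. Mthfd1l was at 81.3, 75.5, 80.1 and 87.4 CPM with vehicle and at 158, 156, 160.1 and 179 CPM with OGN. The groups lay far apart, and the gene rose 2.01-fold (log2 fold change 1.01 ± 0.10 SE, adjusted p = 1.71e-05). Glul went from 44.9, 44.6, 44.6 and 44.3 CPM to 55.5, 55.1, 62.6 and 61.5 CPM, without overlap (1.31-fold, log2 fold change 0.39 ± 0.09 SE, adjusted p = 0.0226). Bcat1, at 36.6, 37.6, 29.0 and 26.4 CPM with vehicle, reached 54.6, 65.5, 32.3 and 38.1 CPM. It was higher in 4 of 4 mice (1.44-fold, log2 fold change 0.52 ± 0.13 SE, adjusted p = 0.0301), but the groups overlapped, and mice 1 and 2 were higher than mice 3 and 4 with either treatment.

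Chac1 showed the largest decrease. Its level was 22.3, 23.0, 13.7 and 15.1 CPM with vehicle and 8.61, 8.51, 6.77 and 8.55 CPM with OGN. All OGN-treated libraries lay below all vehicle-treated ones, 2.24-fold lower (log2 fold change -1.17 ± 0.22 SE, adjusted p = 0.00424). Pycr1 went from 12.8, 14.6, 13.3 and 11.6 CPM to 8.61, 8.90, 6.71 and 8.67 CPM, again without overlap (1.60-fold lower, log2 fold change -0.68 ± 0.16 SE, adjusted p = 0.0230). Both genes were low, with 38 to 211 counts per library for Chac1 and 38 to 143 for Pycr1 in these 8 libraries. Mthfd1l and Chac1 kept their calls in all 13 alternatives, whereas that of Pycr1 was lost without any 1 of the 4 mice (adjusted p up to 0.234). The call of Glul was lost without mouse 2, 3 or 4 (up to 0.196), and that of Bcat1 without mouse 1, 2 or 4 and without the mouse term (up to 0.284).

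Atf4 mRNA did not follow Chac1 past the threshold. With OGN it stood at 266, 293, 249.6 and 271 CPM, against 347, 396, 265 and 258 CPM with vehicle, lower in 3 of 4 mice (log2 fold change -0.22 ± 0.13 SE, adjusted p = 0.450). Asns was at 90.9, 87.7, 95.1 and 93.8 CPM with vehicle and at 82.95, 90.8, 108 and 92.0 CPM with OGN, higher in 2 mice and lower in 2 (0.02 ± 0.10 SE, adjusted p = 0.964). Slc7a5 went from 40.4, 42.1, 31.4 and 32.3 CPM to 36.7, 31.9, 32.1 and 22.5 CPM (-0.25 ± 0.11 SE, adjusted p = 0.273). Asl, called in the Epcam+ cells, was at 36.9, 42.2, 43.6 and 46.01 CPM with vehicle and at 57.6, 56.7, 50.6 and 46.9 CPM with OGN. These groups of Asl did not overlap, yet the change missed the threshold (0.32 ± 0.15 SE, adjusted p = 0.293). Without overlap lay 3 of the 33 genes above and 5 below vehicle, beside 8.64% and 7.79% of all genes tested. Over the set, 16 of 33 log2 fold changes were positive, and the median was -0.22 for regulators, 0.02 for enzymes and 0.01 for transporters, beside -0.01 for all genes.

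**Figure D3:**
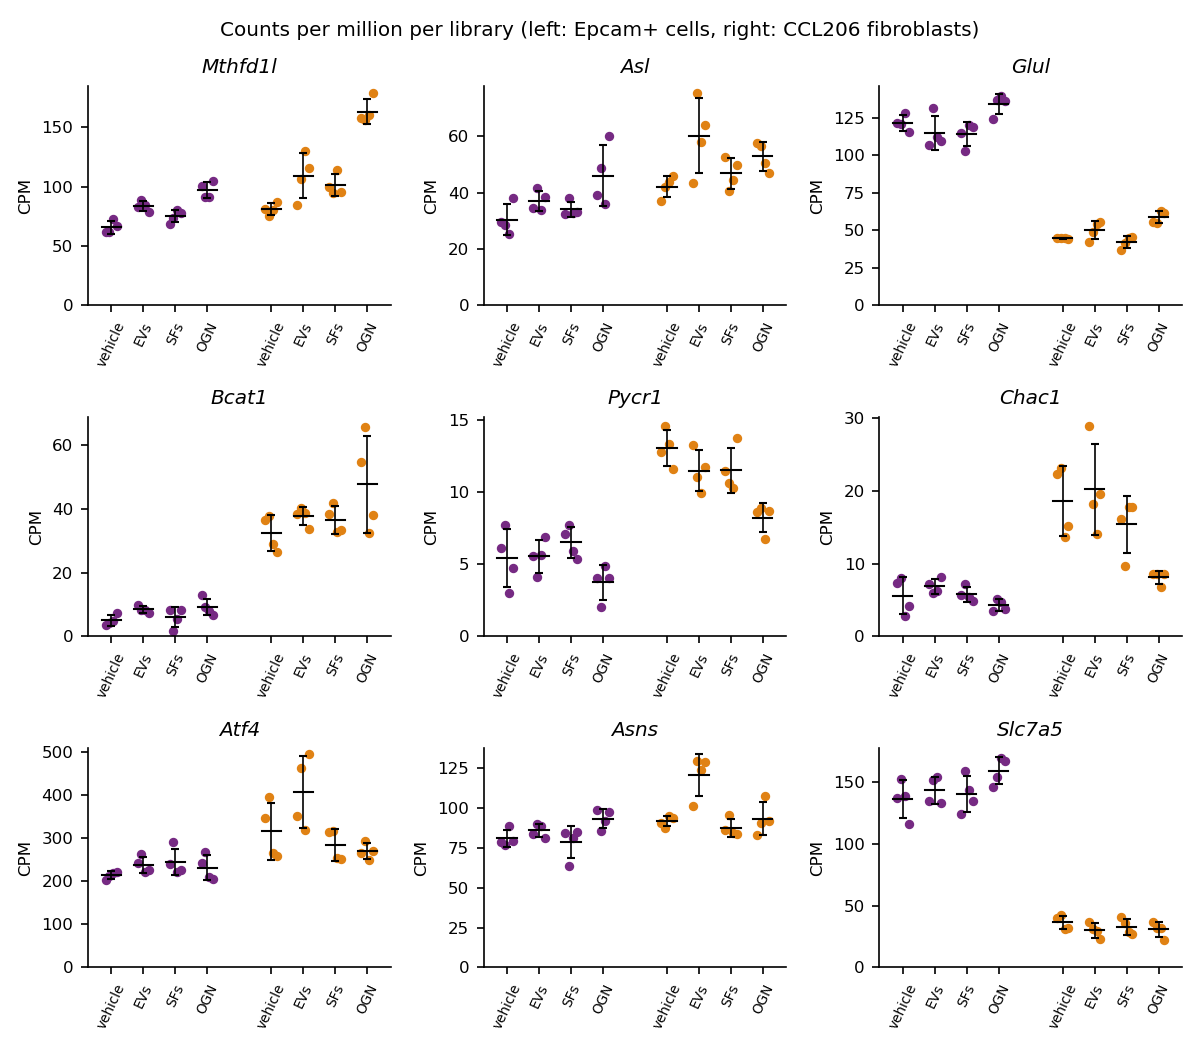
Library-scaled read counts in CPM (y axes, from 0) of 9 genes in each of the 32 libraries, as points in purple for Epcam+ cells and in orange for CCL206 fibroblasts, by treatment; horizontal bars show the mean and error bars the SD of 4 mice. Mthfd1l is above vehicle with OGN in every library of both populations, Chac1 and Pycr1 are below vehicle with OGN in every fibroblast library, and Slc7a5 and Glul are higher in Epcam+ cells under every treatment.

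The spread used in these tests was shared with the EV-treated libraries. Without them, OGN in the fibroblasts called 11 of the 33 genes, 5 higher and 6 lower, beside 15.1% of all genes tested. Mthfd1l (log2 fold change 1.01), Glul (0.40), Bcat1 (0.52), Asl (0.33) and Slc38a1 (0.19) were higher. Ddit3 (-0.64, adjusted p = 0.00753), Chac1 (-1.17), Pycr1 (-0.68), Mthfd2, a mitochondrial folate enzyme (-0.34), Aldh18a1, which starts proline synthesis (-0.23), and Sesn2 (-0.21) were lower. Leaving out only the EV-treated CCL206 libraries of mice 2 and 4 gave 10 genes (13.8% of all tested), and a fit of the OGN and vehicle libraries alone gave 8 (11.7%), which included Slc1a4 (-0.30). Ddit3 was at 63.8, 70.6, 38.6 and 39.0 CPM with vehicle and at 31.3, 34.0, 33.9 and 32.05 CPM with OGN, without overlap, and had an adjusted p of 0.0783 in the fit of all 16 libraries. In the Epcam+ cells leaving out the EV-treated libraries called the same 2 genes, Mthfd1l (0.56) and Asl (0.57), beside 2.17% of all genes tested.

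Marker genes of other cell types moved with OGN as well. In the Epcam+ cells the 7 of 8 airway markers measured summed to 1687 to 3162 CPM with OGN, against 2982 to 4695 CPM with vehicle, and 4 of the 7 were called lower. The 9 fibroblast markers had nearly the same summed median with OGN and vehicle (2316 and 2319 CPM, ranges 2052 to 2588 and 2239 to 3111), with Dcn called higher (log2 fold change 1.14) and Col6a1 (-0.64) and Col6a2 (-0.83) lower. Of 12 macrophage markers only 2 had a row in the table (Lyz2 and Cd68). The others had none, among them Ptprc, which encodes CD45. Lyz2 and Cd68 alone cannot show whether macrophages were present or rose. The sum of Lyz2 and Cd68 was 298 to 402 CPM with OGN and 185 to 253 CPM with vehicle in the Epcam+ cells, and 104 to 218 against 49.9 to 121 CPM in the fibroblasts. Epithelial markers in the fibroblast libraries summed to 354 to 689 CPM with OGN and to 208 to 532 CPM with vehicle. The part of other cell types in the changes of the 33 genes was not tested.

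The OGN effects of the 2 populations were compared directly in a fit of all 32 libraries. None of the 33 genes differed (0.551% of all genes tested), with 7 at an unadjusted p under 0.05 (6.89% of all tested) and none called by DESeq2. The nearest were Slc7a5, with an effect lower in the fibroblasts by 0.48 ± 0.13 SE (log2 difference -0.48, adjusted p = 0.108), and Mthfd1l with a larger effect in the fibroblasts (log2 difference 0.44 ± 0.13 SE, adjusted p = 0.189). For Chac1 the difference was -0.83 ± 0.37 SE (adjusted p = 0.634). Without the EV-treated libraries, Mthfd1l (0.46, adjusted p = 0.0378) and Mthfd2 (-0.49, adjusted p = 0.0437) passed, 2 of 33 beside 1.35% of all genes tested. Calls of Glul, Bcat1, Pycr1 and Chac1 in the fibroblasts were thus not shown to be particular to them.

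EVs and SFs were tested against the same vehicle libraries. In the Epcam+ cells neither called any of the 33 genes with edgeR, beside 0.888% of all genes tested for EVs and 0.230% for SFs, and 4 genes with EVs and 1 with SFs had an unadjusted p under 0.05 (10.2% and 7.79% of all tested). With SFs the 1 gene at an unadjusted p under 0.05 was a regulator. With EVs Mthfd1l came closest to a call. Mthfd1l was at 83.1, 88.4, 85.0 and 78.8 CPM with EVs and at 69.0, 74.0, 80.4 and 77.4 CPM with SFs. Its EV-treated libraries all lay above vehicle (log2 fold change 0.33 ± 0.09 SE, adjusted p = 0.0896), and DESeq2 called it with EVs (adjusted p = 0.0458), as the only gene of the set, beside 1.72% of all genes, while it called none with SFs. Markers of other cells moved with these treatments too. With EVs the fibroblast markers in the Epcam+ cells summed to 3162 to 3745 CPM, above all vehicle libraries (2239 to 3111 CPM), with 4 of 9 called higher, and the airway markers to 1851 to 3047 CPM (2982 to 4695 CPM with vehicle), with 4 of 7 called lower. With SFs the airway markers summed to 1895 to 3353 CPM, with 3 of 7 called lower, and the fibroblast markers to 2602 to 3509 CPM, with none of 9 called. Their part in the values of the 33 genes was not tested. With EVs, Atf4 was at 242, 263, 222 and 227 CPM, Asns at 83.5, 90.2, 88.9 and 81.2 CPM and Slc7a5 at 135, 152, 154 and 133 CPM, all overlapping vehicle. With SFs, Atf4 was at 240.0, 290.4, 222 and 226 CPM, Asns at 84.2, 63.5, 81.4 and 84.8 CPM and Slc7a5 at 124, 159, 144 and 135 CPM. Atf4 was the only gene of the set whose SF-treated Epcam+ libraries all lay above vehicle, beside 2.27% of all genes tested. Its lowest SF-treated library was at 222.323 CPM and its highest vehicle library at 222.32 CPM. In the fibroblasts SFs called no gene of the set (0.0599% of all tested), with 2 at an unadjusted p under 0.05 (Psph and Mthfd1l, beside 5.31% of all genes) and none by DESeq2. Mthfd1l was at 100.1, 94.9, 114 and 95.2 CPM with SFs, above every vehicle library (log2 fold change 0.32 ± 0.11 SE, adjusted p = 0.677), and was called only once the EV-treated libraries were left out (0.32, adjusted p = 0.0380), beside 0.924% of all genes.

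With EVs the fibroblasts showed 9 of the 33 genes higher and 3 lower, beside 19.8% and 16.2% of all genes tested, and 12 in all, beside 36.0%. The share of called genes was thus close to that of the whole table. Higher were 2 regulators (Atf4 and Atf5) and 7 enzymes, among them the serine enzymes Phgdh (1.83-fold) and Psph, phosphoserine phosphatase (1.88-fold). All 3 genes that fell were transporters, Slc6a9 (1.61-fold lower), Slc38a1 (1.40-fold lower) and Slc1a4 (1.29-fold lower). Atf4 stood at 353, 463, 320.2 and 495 CPM with EVs, higher than vehicle in 4 of 4 mice with overlapping groups (1.30-fold, log2 fold change 0.38 ± 0.13 SE, adjusted p = 0.0307). For Asns the values were 101, 129, 124 and 129 CPM, all above vehicle (1.31-fold, log2 fold change 0.39 ± 0.10 SE, adjusted p = 0.00926). Psph was at 24.6, 28.3, 22.5 and 29.1 CPM with vehicle and at 39.5, 49.7, 44.0 and 63.3 CPM with EVs, without overlap (adjusted p = 0.00149).

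The number of these EV calls changed when single mice were left out or the trend along transcript length was taken out. The share called over all genes changed in the same fits. The part of transcript length in the calls was not tested. The median transcript length was 2020 nt for the regulators, 2200.5 nt for the enzymes and 3414.5 nt for the transporters, beside 3047.5 nt for all genes matched, with the transporters being the longest class of the set. Without the EV-treated libraries of mice 2 and 4, Atf5 (log2 fold change 0.36), Psph (0.76) and Mthfd1l (0.39) were called and no transporter (3 genes, 5.48% of all tested). Without mouse 2 none was called (0.162% of all tested), although the median log2 fold changes were 0.26 for regulators, 0.21 for enzymes and -0.35 for transporters, beside 0.14, 0.25 and -0.37 with all 4 mice. Without mouse 4 3 were called (Atf5, Phgdh and Psph, 6.07%), with medians of 0.02, 0.21 and -0.22. With each library's trend along transcript length taken out, 9 genes were called beside 25.6% of all tested, and the medians were -0.09, 0.10 and -0.23. Of these 9 genes, 1 regulator and 6 enzymes were higher and 2 transporters lower. Asns (0.62), Psph (0.81), Phgdh (0.60), Mthfd1l (0.52) and Atf5 (0.29) remained higher and Slc38a1 (-0.51) and Slc6a9 (-0.66) lower. The remaining enzymes among the 6 gained a call that they did not have before. Atf4, Got1, Asl, Bcat2 and Slc1a4 lost their calls. The summed fibroblast markers ranged from 7834 to 13005 CPM with EVs and from 11569 to 12907 CPM with vehicle. Psph was the gene with the least dependence on these choices, being called in 11 of 12 alternatives and lost without mouse 2 (adjusted p = 0.0507).

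**Figure D4:**
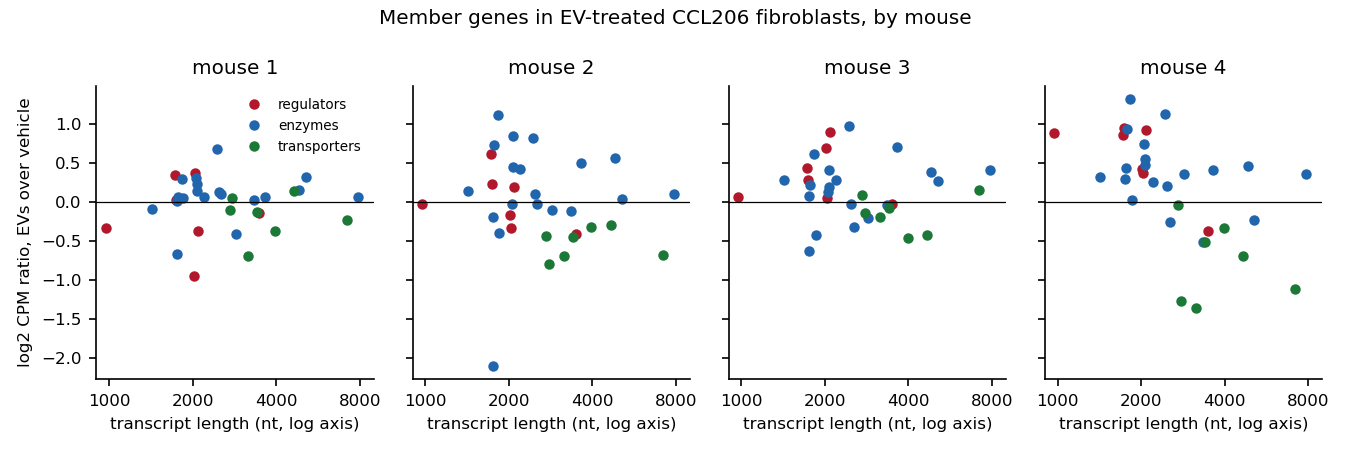
Log2 ratio of CPM, EVs over vehicle, in CCL206 fibroblasts (y axis) against the median transcript length of each gene (x axis, log scale, in nucleotides), in 1 panel per mouse; each point is 1 of the 33 genes, coloured by role. In mouse 4 most regulators and enzymes lie above 0 and the transporters below it, while in mice 1 and 3 transporters lie on both sides of it.

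The EV effects of the 2 populations differed for 5 of the 33 genes, beside 23.8% of all genes tested. Psph (log2 difference, CCL206 minus Epcam+, 0.95 ± 0.20 SE, adjusted p = 0.00541) and Phgdh (0.73 ± 0.23 SE, adjusted p = 0.0242) had the larger effect in the fibroblasts. Sesn2 (-0.42), Slc7a5 (-0.36) and Slc1a4 (-0.60) had the lower effect there. No gene of the set kept this call without the EV-treated CCL206 libraries of mice 2 and 4, and 2 were called with the length trend taken out (12.9% of all tested), Psph and Asns, the latter not called before. For SFs none of the 33 genes differed between populations, as none of all genes tested did (0%), with 2 of the set at an unadjusted p under 0.05 (5.00% of all tested) and none called by DESeq2.

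OGN was also set against SFs. Against vehicle, SFs called none of the 33 genes, beside 0.230% of all genes tested in the Epcam+ cells and 0.0599% in the fibroblasts. In the fibroblasts, Mthfd1l (1.61-fold higher, log2 fold change 0.69 ± 0.10 SE, adjusted p = 0.00155) and Glul (1.39-fold, 0.48 ± 0.09 SE, adjusted p = 0.0106) were higher with OGN than with SFs and Chac1 was lower (1.90-fold, -0.93 ± 0.23 SE, adjusted p = 0.0417), 3 of 33. Of all genes tested, 1.91% were higher, 0.881% lower and 2.79% changed in either direction. With SFs, Chac1 was at 16.1, 9.68, 17.8 and 17.8 CPM and Glul at 37.2, 41.4, 44.8 and 45.3 CPM, so that neither overlapped the OGN-treated libraries. Leaving out 1 mouse at a time left 0 to 1 of these calls, the 0 without mouse 2, and leaving out the EV-treated libraries gave 7 genes (11.0% of all tested). In the Epcam+ cells Mthfd1l was the only gene called (1.30-fold, log2 fold change 0.38 ± 0.09 SE, adjusted p = 0.0300, beside 1.91% of all genes tested). All OGN-treated libraries of Mthfd1l lay above all SF-treated ones, yet this call was lost without any 1 of the mice and without the EV-treated libraries.

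Over the 6 comparisons of a treatment with vehicle, 17 of the 33 genes were called in none. The same share over all genes was not counted, so this number cannot be read as few or many. EVs in the fibroblasts alone called 36.0% of all genes tested. The rest of the pathway was read from 4 further lists. With OGN, 2.70% of all genes tested were called in the Epcam+ cells, 4.56% in the fibroblasts and 15.1% in the fibroblasts without the EV-treated libraries, and 13.1% and 15.7% had an unadjusted p under 0.05 in the 2 populations. Of 20 aminoacyl-tRNA synthetase genes, whose products charge tRNAs and which are transcribed in the Atf4 response, none was called with OGN in either population, with 2 in the Epcam+ cells and 1 in the fibroblasts at an unadjusted p under 0.05. The nearest was Yars in the Epcam+ cells (log2 fold change 0.30 ± 0.08 SE, adjusted p = 0.0571), and Lars was called in the fibroblasts without the EV-treated libraries (-0.19). Of 15 genes for eIF2alpha kinases, eIF2 and eIF2B subunits, none was called with OGN either, with 1 in each population at an unadjusted p under 0.05. The nearest was the eIF2B subunit gene Eif2b1 in the Epcam+ cells (log2 fold change 0.31 ± 0.09 SE, adjusted p = 0.0917), and Eif2b2 was called in the fibroblasts once the EV-treated libraries were left out (0.48).

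Among the other targets of Atf4, 2 of 27 were called with OGN in each population, and 6 in the fibroblasts without the EV-treated libraries. Slc7a11, the cystine importer, rose in both, from 126 ± 15.5 to 241 ± 17.99 CPM in the Epcam+ cells (1.92-fold, adjusted p = 6.9e-08) and from 27.7 ± 3.54 to 87.1 ± 10.6 CPM in the fibroblasts (3.14-fold, adjusted p = 2.02e-05). Its partner subunit Slc3a2 rose in the Epcam+ cells (log2 fold change 0.38), and the growth factor gene Vegfa in the fibroblasts (0.53). Among other amino acid enzymes and carriers, 1 of 35 was called in the Epcam+ cells and 3 of 33 in the fibroblasts, or 8 of 33 without the EV-treated libraries. The arginase gene Arg2 rose in both populations, by log2 fold changes of 0.63 and 1.58, and Sat1, which acetylates polyamines, rose in the fibroblasts (0.42). Slc7a2, a cationic amino acid transporter, was at 71.7 ± 6.95 CPM with OGN and 18.9 ± 2.02 CPM with vehicle in the fibroblasts (3.83-fold, adjusted p = 2.02e-05) and had a log2 fold change of -0.09 ± 0.13 SE in the Epcam+ cells. That difference between populations was itself past the threshold for Slc7a2 (log2 difference 2.02 ± 0.25 SE, adjusted p = 2.76e-05), as it was for none of the 33 genes in the same fit. Without the EV-treated libraries, Slc7a11 (1.65), Vegfa (0.53), Arg2 (1.57), Sat1 (0.43) and Slc7a2 (1.93) were again called in the fibroblasts.

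With EVs in the fibroblasts, where 36.0% of all genes were called, 9 synthetases were higher and 1 lower, 5 genes of the eIF2 list were higher and 2 lower, 6 other targets were higher and 2 lower, and 6 other enzymes and carriers were higher and 5 lower. Without the EV-treated libraries of mice 2 and 4, 3 synthetases (Gars, Nars and Vars), 2 genes of the eIF2 list (Eif2b2 and Eif2ak2), 2 other targets (Vegfa and Klhl24) and 1 carrier (Slc6a6) were called, beside 5.48% of all genes. Of the 4 lists, 1 gene was called in the Epcam+ cells with EVs (Vegfa, log2 fold change 0.47), beside 0.888% of all genes tested. With SFs it was 1 gene as well (Slc7a11, 0.47), beside 0.230%. Both genes are from the list of 27 other targets, and the other lists held 20, 15 and 35 genes. In the fibroblasts SFs called none, beside 0.0599% of all genes tested. Once the EV-treated libraries were left out, SFs called Vegfa (0.43), 1 of 27 other targets, and Slc7a2 (0.60), 1 of 33 other enzymes and carriers. The share over all genes was then 0.924%.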

How the data were processed

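RNA of 32 libraries (2 sorted fractions, 4 treatments, 4 mice) was sequenced. The authors deposited raw read counts per gene. Per the labels and methods, reads were trimmed with Trimmomatic 0.30, the submitters' notes name DESeq2 1.34.0, and the labels name GRCm39 where the methods name GRCm38. The aligner, the counter, and its handling of strand and of reads shared with pseudogenes are not given in the sources used here. Every gene of the table had at least 1 count in every library.

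Counts were analysed in R 4.3.3 with edgeR 4.0.16 (TMM, filterByExpr, quasi-likelihood test, Benjamini-Hochberg adjustment over all genes tested, threshold 0.05). The model held treatment and mouse, with the 16 libraries of a population (11716 genes passed for Epcam+ and 11689 for CCL206) or all 32 (11805 genes) for comparisons between populations. DESeq2 1.42.0, other normalisation and filters, and fits without single mice, without EV-treated libraries, without the mouse term or with a lowess trend on GENCODE transcript length (span 0.3) removed were alternatives. Transcript lengths are the median over a gene's transcripts. Fold changes come from the fit, and SE is the fold change divided by the root of the F statistic.

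The mouse numbers pair libraries, as the same 4 mice gave cells to all groups. Deviations from group means correlated at 0.12 on average within a mouse and at -0.04 between mice. The fibroblast line was shared by all mice, so replicates of that fraction are co-cultures and not separate animals. In simulated data, 173 of 199 genes changed 2-fold were recovered in the Epcam+ comparison with vehicle, 159 of 200 in the CCL206 comparison and 123 of 200 for the difference between populations. Unchanged genes were also called, 6, 5 and 4 in that order. The simulation had no differences between mice and no trend with transcript length. Changes smaller than 2-fold were not simulated, so recovery of such changes is not known. CPM values used TMM factors over all 32 libraries.

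Values in every library are given for genes called with OGN against vehicle, with EVs or SFs in Epcam+ cells or in the OGN difference between populations, and for Atf4, Asns and Slc7a5. Ddit3 and Psph were added after their values were seen, as were the genes named from the 4 further lists other than Slc7a11, Arg2, Yars and Eif2b1. The genes and lists were chosen with earlier results of these data known.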

Additional observations from a re-analysis of the deposited data

Results flagged for a closer look

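In 5 of 72 groups of 4 libraries checked for the 9 genes with values in every library, 1 library lay far from the other 3. Chance gives about 1 in 20 such groups. With OGN in the fibroblasts, mouse 3 was low for Chac1 (6.77 CPM, others 8.51 to 8.61) and for Pycr1 (6.71 CPM, others 8.61 to 8.90), and mouse 4 was high for Mthfd1l (179 CPM, others 156 to 160.1). With SFs in the Epcam+ cells, mouse 2 was low for Asns (63.5 CPM, others 81.4 to 84.8) and high for Asl (38.1 CPM, others 32.3 to 33.2). For Chac1, Pycr1 and Mthfd1l the separate library was the one farthest from the vehicle group.

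The effect of EVs differed between the populations, by the test of the difference itself, for Sesn2 (log2 difference, CCL206 minus Epcam+, -0.42), Phgdh (0.73), Psph (0.95), Slc7a5 (-0.36) and Slc1a4 (-0.60). None of the 5 was called without the EV-treated CCL206 libraries of mice 2 and 4, whose part in these differences was not separated from that of the treatment.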

How the results depend on the processing

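The number of the 33 genes called is compared here. Shares over all genes are given above for some of these fits and not for the others. Those shares moved too, for OGN against SFs in the fibroblasts from 2.79% to 11.0% without the EV-treated libraries. A shift in the counts below is thus not a result about the 33 genes in particular. The comparison of vehicle-treated populations gave 26 to 28 genes without single mice and 28 to 30 otherwise (30 as reported). SFs in the Epcam+ cells and the SF difference between populations stayed at 0 in all 12 and 13 alternatives. The cause of the following shifts was not tested. OGN in the Epcam+ cells gave 1 to 3 genes without single mice and 1 without the mouse as a replicate block (2 as reported). OGN in the fibroblasts gave 2 to 3 without single mice (each of the 4 lowered it), 11 without EV-treated libraries, 10 without those of mice 2 and 4 in CCL206 and 8 with only the libraries compared (5 as reported). EVs in the Epcam+ cells gave 1 with DESeq2 (0 as reported). EVs in the fibroblasts gave 0 to 15 without single mice, the 0 without mouse 2 and 3 without mouse 4, 3 without the EV-treated libraries of mice 2 and 4, and 2 with only the libraries compared (12 as reported). SFs in the fibroblasts gave 1 without EV-treated libraries and 2 with only the libraries compared (0 as reported). OGN against SFs in the Epcam+ cells gave 2 with DESeq2 and 0 without the replicate block, without EV-treated libraries, with only the libraries compared and without any single mouse (0 to 0; 1 as reported). In the fibroblasts it gave 0 to 1 without single mice, 7 without EV-treated libraries, 6 without those of mice 2 and 4, 5 with the length trend removed and 8 with only the libraries compared (3 as reported). The OGN difference between populations gave 2 without EV-treated libraries (0 as reported). The EV difference gave 1 to 6 without single mice, fewest without mouse 2 or 4, 3 without the replicate block, 0 without the EV-treated CCL206 libraries of mice 2 and 4, 2 with the length trend removed and 1 with only the libraries compared (5 as reported). Of the values of single genes, 685 kept direction and side of the threshold, 121 kept direction alone, and 1 turned, Asns with OGN in the fibroblasts, whose log2 fold change ran from -0.038 (without mouse 3) to 0.075 when single mice were left out.

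Bcat1, Chac1 and Pycr1 had as few as 3 to 13 counts in an Epcam+ library and Cth as few as 2 in a CCL206 library. How depth affected calls at such counts was not tested.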
